A study of Mus musculus with 6 samples.

Results

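Non-muscle and smooth muscle myosin II motors, the kinase that switches them on and the phosphatase that switches them off were followed in primary aortic vascular smooth muscle cells (VSMCs) with and without Smyd2, which encodes a lysine methyltransferase. The 10 genes were chosen by symbol for their roles: the heavy chains Myh9, Myh10 and Myh11, the light chains Myl6 and Myl9, the light chain kinase Mylk, the phosphatase targeting subunits Ppp1r12a, Ppp1r12b and Ppp1r12c, and the phosphatase inhibitor Ppp1r14a. They make up 10 of the 18112 genes with values, where they carry the NCBI Gene numbers 17886, 77579 and 17880 (heavy chains), 17904 and 98932 (light chains), 107589 (kinase), 17931, 329251 and 232807 (targeting subunits) and 68458 (inhibitor), in the order given. RNA was sequenced from 3 Smyd2 fl/fl libraries, the controls, and 3 Smyd2 SMC-/- libraries, also called Smyd2-deficient, to learn how loss of Smyd2 changes gene expression in VSMCs. Cells came from the aortas of young adult C57BL/6 mice and no treatment is named for either group. Both groups carried Smyd2 alleles with LoxP sites around an early exon, and the Smyd2 SMC-/- mice also carried Tagln-Cre (SM22α-Cre), so that Cre and the deletion cannot be told apart. The Tagln promoter is also active outside VSMCs, and it drives deletion in the intact animal before cells are cultured. The sample labels give passage 6 in 10% serum, whereas the study's methods give an earlier passage and overnight starvation, and the labels do not say whether each library came from a separate animal or culture. P-values therefore measure the spread between these libraries, which may be technical.

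Myosin II is a hexamer of paired heavy chains, essential light chains and regulatory light chains. Calcium and calmodulin activate myosin light chain kinase, which phosphorylates the regulatory light chain and allows the motor to pull on actin, and this drives contraction of the arterial wall. Myosin phosphatase reverses the step: a targeting subunit brings the catalytic subunit of protein phosphatase 1 to myosin, and the inhibitor CPI-17 blocks it once phosphorylated.

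Smyd2 itself was measured first. Its FPKM (mapped fragments divided by transcript length and by the depth of the library) was 7.87, 3.10 and 3.0 in control replicates 1, 2 and 3 and 1.67, 0.40 and 0.80 in the Smyd2-deficient replicates. Each Smyd2 SMC-/- library was below each control library, and replicate 1 was the highest of its group in both. On the log2(FPKM + 1) scale, on which all fold changes here are given and which understates changes of low genes, Smyd2 was lower by a log2 fold change of -1.48 (SE 0.389, limma adjusted p = 0.105 over all tested genes, and 0.0189 when replicate number was added as a block). An exact two-sided permutation test gave p = 0.1, the smallest that 3 against 3 libraries allow. The values count fragments over the whole transcript, so remaining fragments may come from exons that were not deleted.

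Smooth muscle markers were partly absent from both groups. Of 11 listed markers, 6 passed the filter of a mean of at least 0.5 FPKM, and Acta2, the most abundant of them and the gene for smooth muscle α-actin, was lower in Smyd2 SMC-/- VSMCs (log2 fold change -1.55, SE 0.153, limma adjusted p = 0.00803). Of the 6, 5 had a negative and 1 a positive log2 fold change, and Acta2 alone was called without a block or with the replicate block. Replicates 2 and 3 alone called 3 of the 6, in a fit that called 29.4% of all genes. These were Acta2 and Actg2 lower (-0.70, limma adjusted p = 0.00998) and Lmod1 higher (0.83, limma adjusted p = 0.00322). Lmod1, singled out after its values were seen, was at 3.28, 2.71 and 2.83 FPKM with Smyd2 and 1.22, 5.44 and 6.02 FPKM without (0.24 over all libraries and -0.06 without Smyd2 SMC-/- replicate 3), and Smtn, named in the same way, was nearly level (-0.05, limma adjusted p = 0.900). The summed FPKM of the list, most of it Acta2, was 925, 824 and 816 in control VSMCs and 264, 430 and 377 in Smyd2-deficient VSMCs. Among defining markers, Myh11 did not exceed 0.22 FPKM, Des 0.22 FPKM and Myocd, the gene for myocardin, 0.48 FPKM in any library. In bulk RNA, fewer cells of a type and less RNA per cell cannot be told apart.

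Markers of other cell types were read beside these. All 7 fibroblast and adventitia markers were tested, and 4 had a negative and 3 a positive log2 fold change. Dpt, which encodes the matrix protein dermatopontin, was lower without Smyd2 (log2 fold change -5.28, SE 0.427, limma adjusted p = 0.00417), and Ly6a was not called without a block but was with the replicate block (-1.09, SE 0.201, limma adjusted p = 0.0404). Their summed FPKM was 592, 1260 and 1180 in control VSMCs and 1410, 1380 and 1020 in Smyd2-deficient VSMCs, led by Col1a1, a collagen chain. Col1a1 was at 362, 444 and 491 FPKM with Smyd2 and 1333, 831 and 522 FPKM without, groups that did not overlap, and it was not called (0.96, limma adjusted p = 0.186). Lum, picked out once its values were known, was positive and not called (1.82, limma adjusted p = 0.342). Dcn, named in the same way, was at 13.9, 311 and 257 FPKM with Smyd2 and 25.6, 383 and 350 FPKM without. The groups overlapped, but Dcn was higher without Smyd2 at each replicate number (log2 differences of 0.84, 0.30 and 0.45). It was not called without a block (0.53, SE 1.49, limma adjusted p = 0.890) or with the replicate block (limma adjusted p = 0.0702). It was called with the block once chromosome medians were removed (0.87, limma adjusted p = 0.0385). In fits without a block it turned to -0.89 without control replicate 1. It was -0.13 without Smyd2 SMC-/- replicate 2 and -0.07 without Smyd2 SMC-/- replicate 3. Such fits leave the replicate numbers unbalanced between the groups. Of 8 endothelial markers 1 was tested, Kdr, their most abundant, at 0.47, 0.58 and 0.84 FPKM with Smyd2 and 0.96, 5.15 and 2.96 FPKM without; these groups did not overlap and it was not called (1.16, limma adjusted p = 0.186). Pecam1, under the filter and named after its values were seen, went the other way without overlap, at 0.56, 0.88 and 0.92 FPKM with Smyd2 and 0.12, 0.18 and 0 FPKM without, so the list had no shared direction, and Cdh5 and Tie1 did not exceed 0.01 FPKM. Of 6 macrophage and leukocyte markers 4 were tested and 0 called, with Cd14 the most abundant and Ptprc and Adgre1 not above 0.02 FPKM. Neither the fit without a block nor that with the replicate block called any of the 3 tested of 11 striated and cardiac muscle markers (led by Tnnt2), the 3 tested of 5 pericyte markers (led by Pdgfrb) and the 2 tested of 4 Schwann cell markers (led by S100b), and none of 4 adipocyte markers was tested. Replicates 2 and 3 alone, where 29.4% of all genes were called, gave calls in each of these tested lists, and the genes called there are named after their values were seen. Among fibroblast markers 5 of 7 were called, Dpt, Pdgfra, Ly6a and Pi16 lower and Lum higher (2.57, limma adjusted p = 6.68e-05). Kdr was called higher (1.53, limma adjusted p = 0.00263), as were Csf1r, Cspg4, Myl7 and S100b (2.29, limma adjusted p = 0.000851), whereas Lyz2, Tnnt2 and Tnnt3 were called lower. The part of other cell types in the results was not tested.

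Replicate 1 of both groups stood apart from replicates 2 and 3. The first principal component held 50.2% of the variance and the second 33.1%, and each carried both replicate number and genotype. On the first, the controls were at -58.6, 3.11 and 2.74 and the Smyd2-deficient libraries at -25.4, 39.1 and 39.1; on the second they were at 8.34, 32.9 and 30.7 and at -48.3, -9.4 and -14.3. Of 12565 genes that passed the filter, limma without a block called 306 (2.44%) at an adjusted p under 0.05, 154 higher and 152 lower in Smyd2 SMC-/- VSMCs. With the libraries rescaled to TPM (each library given the same sum), 247 were higher and 99 lower, as the median over all tested genes moved by 0.11 on the log2 scale. Leaving out 1 library gave 278 calls without Smyd2 fl/fl replicate 1, 34 without replicate 2 and 36 without replicate 3. It gave 682 calls without Smyd2 SMC-/- replicate 1, 55 without replicate 2 and 39 without replicate 3.

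Of the 10 genes, 9 passed the filter, and Myh11 did not. Limma without a block called 0 of the 9. At an unadjusted p under 0.05 there were 5 of 9 (55.6%), against 2556 of 12565 genes (20.3%). In the fit with the replicate block 4 were called, all lower: Myh9, Myl6, Ppp1r12a and Ppp1r14a. That fit called 1312 genes (10.4%), 719 lower (5.72%) and 593 higher (4.72%). A block that separates replicate 1 from replicates 2 and 3 called 2550 genes (20.3%) and 6 of the 9, adding Mylk and Ppp1r12b as higher. The same 6 were called in replicates 2 and 3 alone, where 3667 genes (29.4%) passed. The values of the groups did not overlap for 6 of the 9, 5 lower and 1 higher, against 3533 of 12565 genes (28.1%).

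**Figure D1:**
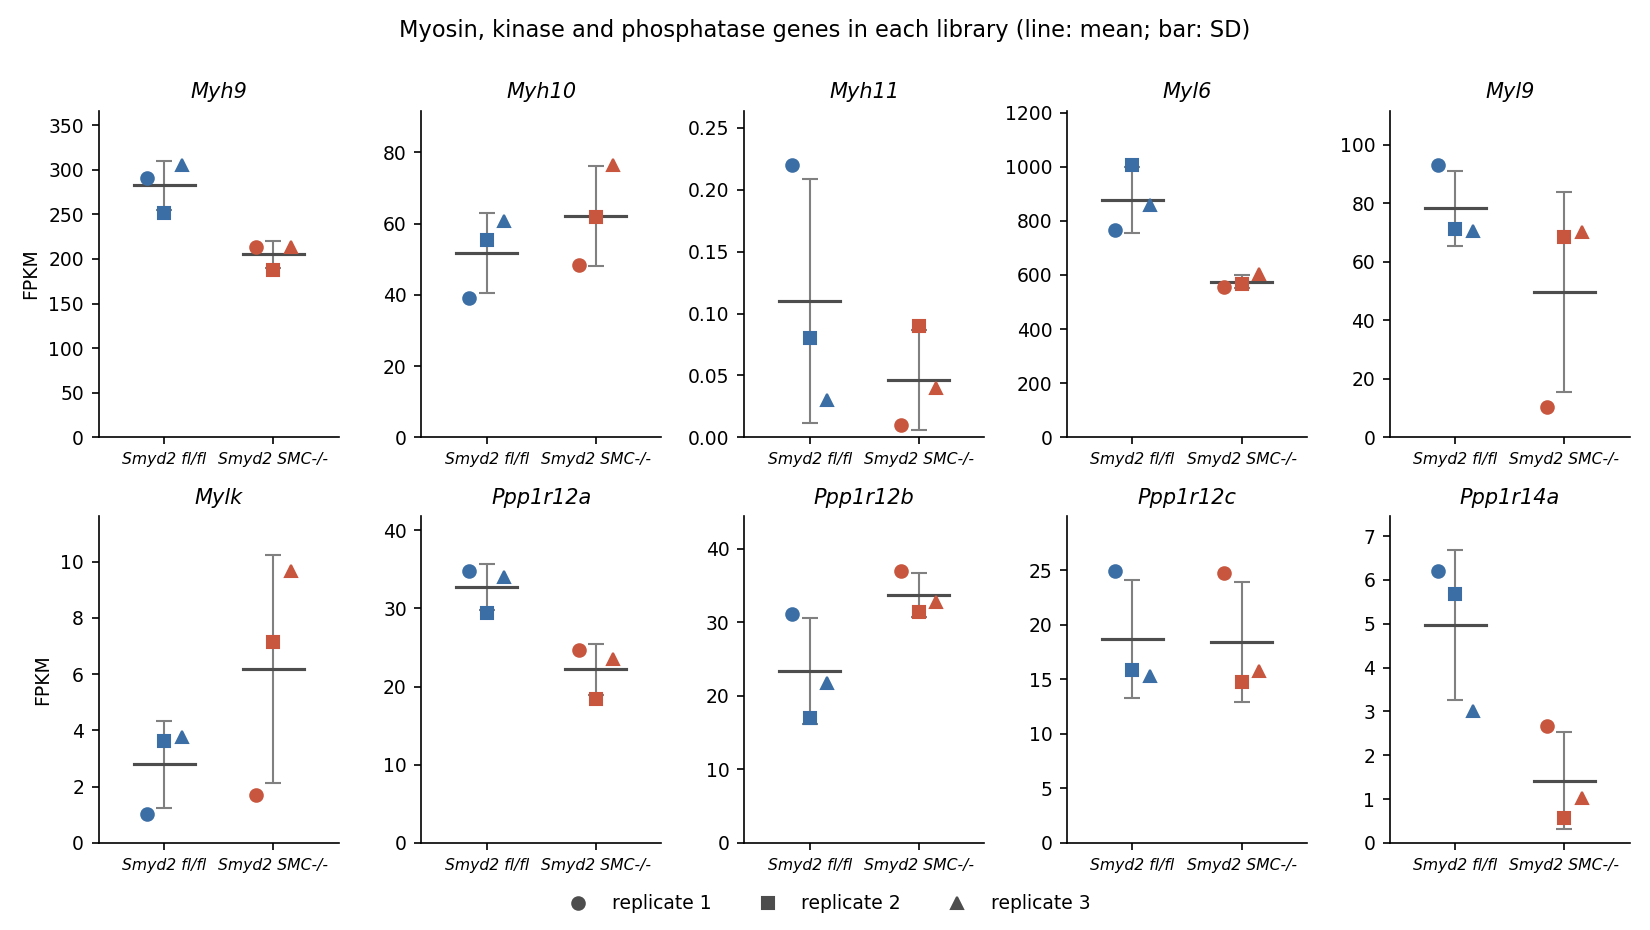
FPKM of each of the 10 genes in the 3 Smyd2 fl/fl (blue) and 3 Smyd2 SMC-/- (red) libraries, with the group mean (line) and SD (bar); marker shapes give the replicate number and each vertical axis starts at 0. Myl9 was at 10.4 FPKM in Smyd2 SMC-/- replicate 1 and between 68.5 and 93.1 FPKM in the other 5 libraries.

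Genotype differences also varied by chromosome. The median log2 fold change of all tested genes was -0.02, but it was -0.35 over 583 genes of chromosome 10, with -0.28, -0.42 and -0.39 within replicates 1, 2 and 3. It was -0.42 over 428 genes of chromosome 19 and 0.28 over 752 genes of chromosome 5. Myl6 and Ppp1r12a lie on chromosome 10. With each chromosome's median removed and the replicate block kept, a setting chosen after seeing the data, 0 of the 9 were called. Myl6 was at -0.26 (limma adjusted p = 0.237), Ppp1r12a at -0.21 (0.224) and Myh9 at -0.38 (0.0933). Ppp1r14a was at -1.34 (limma adjusted p = 0.0617), beside -1.35 with the block alone, and Mylk was at 1.0 (0.0536). The fit with chromosome medians removed and the block called 614 of 12565 tested genes, so 0 of 9 says little. Acta2, on chromosome 19, remained called (-1.16, limma adjusted p = 0.0273). The cause of the chromosome medians was not tested.

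**Figure D2:**
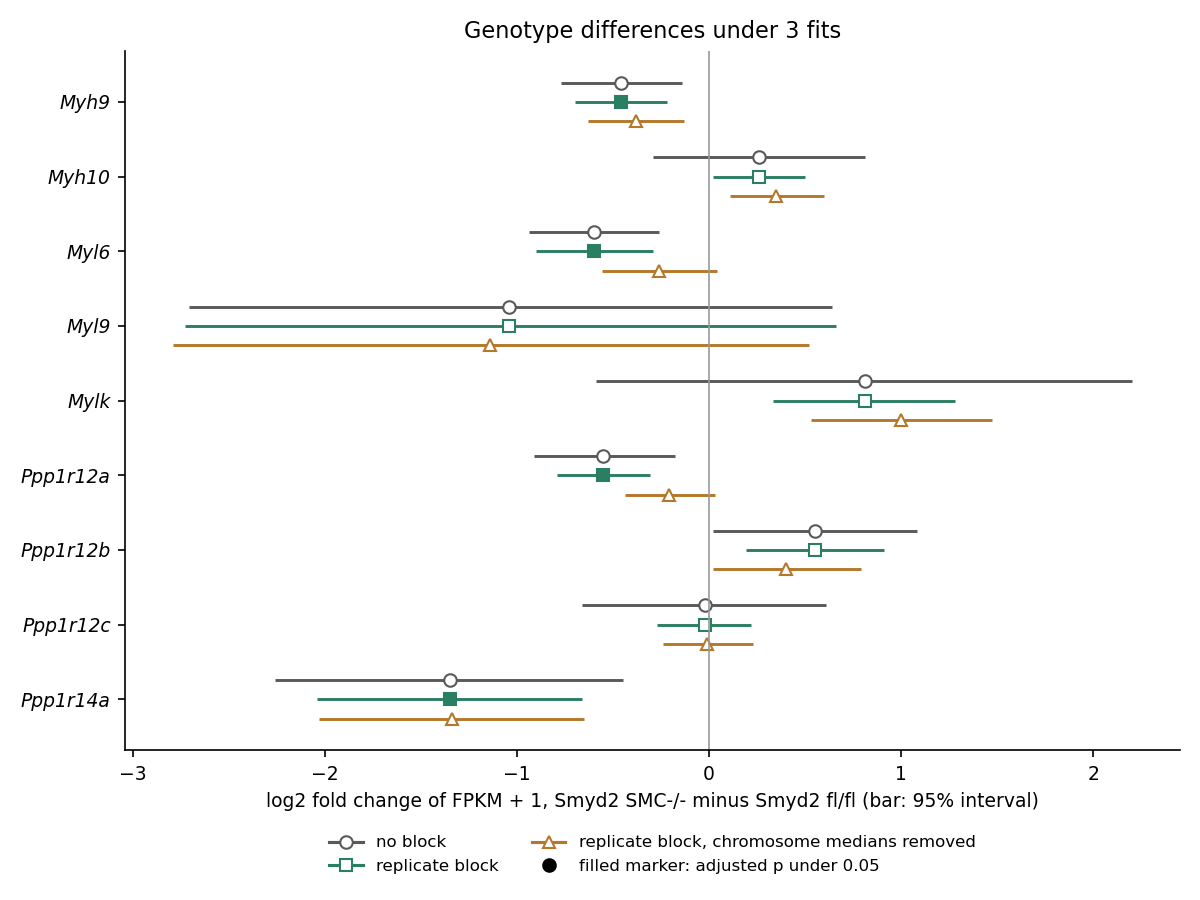
Log2 fold change of FPKM + 1 (horizontal axis, Smyd2 SMC-/- minus Smyd2 fl/fl, n = 3 libraries each) of the 9 tested genes with 95% intervals, without a block (circles), with the replicate block (squares) and with the block after removal of chromosome medians (triangles); filled markers have an adjusted p under 0.05. Filled markers occur for 4 genes with the replicate block, and Myl6 and Ppp1r12a lie nearer to 0 once chromosome medians are removed.

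The start regions of these genes were read because the study concerns the CArG box, the element bound by serum response factor, in smooth muscle promoters. RefSeq windows (GRCm38.p6) of 250 bases before to 50 bases after the start matched 9 of the 10 genes (not Myh11), with 11 windows. A CArG box on either strand was in 2 of the 11, those of Myl9 and of 1 of 2 starts of Myl6, and in 535 of 32851 windows of all genes (1.63%). The GC box GGGCGG, on either strand, was in 7 of the 11 and in 35.7% of all windows, and the MCAT element CATTCC, on either strand, in 3 of the 11 and in 14.7% of all windows. Matches of different motifs did not overlap in these windows. The windows of both light chains, of the kinase and of the inhibitor are shown, the first pair because they hold CArG boxes and the others because they belong to the switch genes whose balance is described below; capitals mark CArG boxes, GC boxes and MCAT elements. In order they lie at chr2:156775214-156775513 (+ strand), chr10:128492960-128493259 (- strand), chr16:34784700-34784999 (+ strand) and chr7:29289070-29289369 (+ strand).
Myl9: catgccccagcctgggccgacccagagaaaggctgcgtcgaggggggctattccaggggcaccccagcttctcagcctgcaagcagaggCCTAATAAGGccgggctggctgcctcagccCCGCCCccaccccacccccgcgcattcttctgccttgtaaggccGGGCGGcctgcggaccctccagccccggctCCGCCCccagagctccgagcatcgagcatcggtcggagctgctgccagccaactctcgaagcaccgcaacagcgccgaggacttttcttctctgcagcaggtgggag
Myl6: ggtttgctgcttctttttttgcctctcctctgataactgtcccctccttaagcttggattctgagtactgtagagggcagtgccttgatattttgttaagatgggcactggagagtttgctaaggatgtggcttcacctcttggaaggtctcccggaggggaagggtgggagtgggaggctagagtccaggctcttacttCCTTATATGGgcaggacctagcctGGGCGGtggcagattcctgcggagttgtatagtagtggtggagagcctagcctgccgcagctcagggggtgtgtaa
Mylk: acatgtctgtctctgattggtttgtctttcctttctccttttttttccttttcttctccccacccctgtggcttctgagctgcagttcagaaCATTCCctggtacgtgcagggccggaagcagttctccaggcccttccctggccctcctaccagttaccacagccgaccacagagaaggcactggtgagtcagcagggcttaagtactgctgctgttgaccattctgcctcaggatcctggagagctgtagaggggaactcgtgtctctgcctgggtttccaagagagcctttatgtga
Ppp1r14a: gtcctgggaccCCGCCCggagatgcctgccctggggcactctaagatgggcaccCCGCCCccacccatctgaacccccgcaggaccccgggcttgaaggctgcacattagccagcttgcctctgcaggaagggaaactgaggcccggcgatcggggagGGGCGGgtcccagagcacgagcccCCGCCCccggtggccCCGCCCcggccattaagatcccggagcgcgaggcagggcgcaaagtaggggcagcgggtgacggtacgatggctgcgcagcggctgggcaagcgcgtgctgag
The CArG box of Myl9 begins at position -161 and that of Myl6 at position -50, counted from 0 at the start. Myl9 holds 3 GC boxes and Ppp1r14a holds 5, whereas Mylk holds 1 MCAT element and neither other motif. These matches describe letters only.

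Myh9, the heavy chain of non-muscle myosin IIA, was the main heavy chain of these cells. It was at 291, 252 and 305 FPKM in control replicates 1, 2 and 3 and at 214, 188 and 214 FPKM in the Smyd2-deficient replicates (283 ± 27.5 against 205 ± 14.8, mean ± SD, n = 3 each). All Smyd2 SMC-/- values lay below all control values, and the gap was alike in the 3 replicate numbers (log2 differences of -0.44, -0.42 and -0.51). The log2 fold change was -0.46 (SE 0.131, 95% interval -0.77 to -0.14) with a limma adjusted p of 0.125, and of 0.0472 with the replicate block. Over the 16 other settings tried, its adjusted p ran from 0.0383 to 0.342.

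Myh10 encodes the heavy chain of non-muscle myosin IIB, a motor that holds tension longer than IIA. Its FPKM was 39.2, 55.4 and 60.8 in control VSMCs and 48.4, 61.8 and 76.5 in Smyd2-deficient VSMCs. The groups overlapped, although the value was higher without Smyd2 at each replicate number, and the log2 fold change of 0.26 (SE 0.230) was not called (limma adjusted p = 0.596, and 0.138 with the replicate block). It moved with single libraries: it was 0.0748 without control replicate 1, 0.10 without Smyd2 SMC-/- replicate 3 and 0.42 without Smyd2 SMC-/- replicate 1. Myh11, the smooth muscle heavy chain and a marker of mature VSMCs, was at 0.22, 0.08 and 0.03 FPKM in control VSMCs and 0.01, 0.09 and 0.04 FPKM in Smyd2-deficient VSMCs. From the steps of low values these stand for about 26, 10 and 4 fragments and 1, 11 and 5 fragments. The gap at replicate 1 was not repeated at replicates 2 and 3, and an exact permutation test, which cannot go below 0.1, gave p = 0.5.

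Myl6, the essential light chain that stabilizes the lever arm of smooth muscle and non-muscle myosin, was the most abundant of the 10 genes. Its FPKM was 767, 1006 and 858 in control VSMCs and 556, 567 and 603 in Smyd2-deficient VSMCs (877 ± 121 against 575 ± 24.6, mean ± SD, n = 3 each). The highest Smyd2 SMC-/- value lay below the lowest control value. The log2 fold change was -0.60 (SE 0.141, 95% interval -0.94 to -0.26), with a limma adjusted p of 0.0804, and of 0.0442 with the replicate block. Its adjusted p ran from 0.0104 to 0.457 over the 16 other settings, the highest when chromosome medians were removed, which left -0.26.

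Myl9, a regulatory light chain typical of smooth muscle and a substrate of the kinase, behaved differently in replicate 1. It was at 93.1, 71.3 and 70.5 FPKM in control replicates 1, 2 and 3 and at 10.4, 68.5 and 70.4 FPKM in the Smyd2-deficient replicates. Replicate 1 without Smyd2 was far below the other 5 libraries, whereas replicates 2 and 3 were nearly level with their controls, so that the groups stayed apart only by the gap between 70.4 and 70.5 FPKM. The log2 fold change over all libraries was -1.04 with a wide 95% interval of -2.71 to 0.64 (SE 0.698, limma adjusted p = 0.474), and in replicates 2 and 3 alone it was -0.03 (SE 0.0979, adjusted p = 0.842). Its adjusted p ran from 0.274 to 0.842 over the 16 other settings. Without Smyd2 SMC-/- replicate 1 alone it was -0.16. As a description, the log2 difference in replicate 1 minus that in replicates 2 and 3 was -3.02. No p-value is given for it, since the pattern was seen in these values first and rests on 1 library of each genotype at replicate 1.

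Tagln and Cnn1, smooth muscle markers, were read beside Myl9. Tagln, which encodes the actin-binding protein SM22α and was singled out here after its values were seen, was at 80.5, 79.1 and 70.3 FPKM in control VSMCs and at 12.5, 87.3 and 57.1 FPKM in Smyd2-deficient VSMCs. Cnn1, the gene for calponin and singled out in the same way, was at 21.0, 4.86 and 5.11 FPKM and at 2.70, 5.07 and 4.32 FPKM. Tagln, like Myl9, was low in Smyd2 SMC-/- replicate 1, whereas Cnn1 was high in control replicate 1, which accounts for most of its gap at that number. Acta2 was at 761, 682 and 683 FPKM with Smyd2 and at 201, 268 and 262 FPKM without, lower at every replicate number. The cause of these values was not tested.

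**Figure D3:**
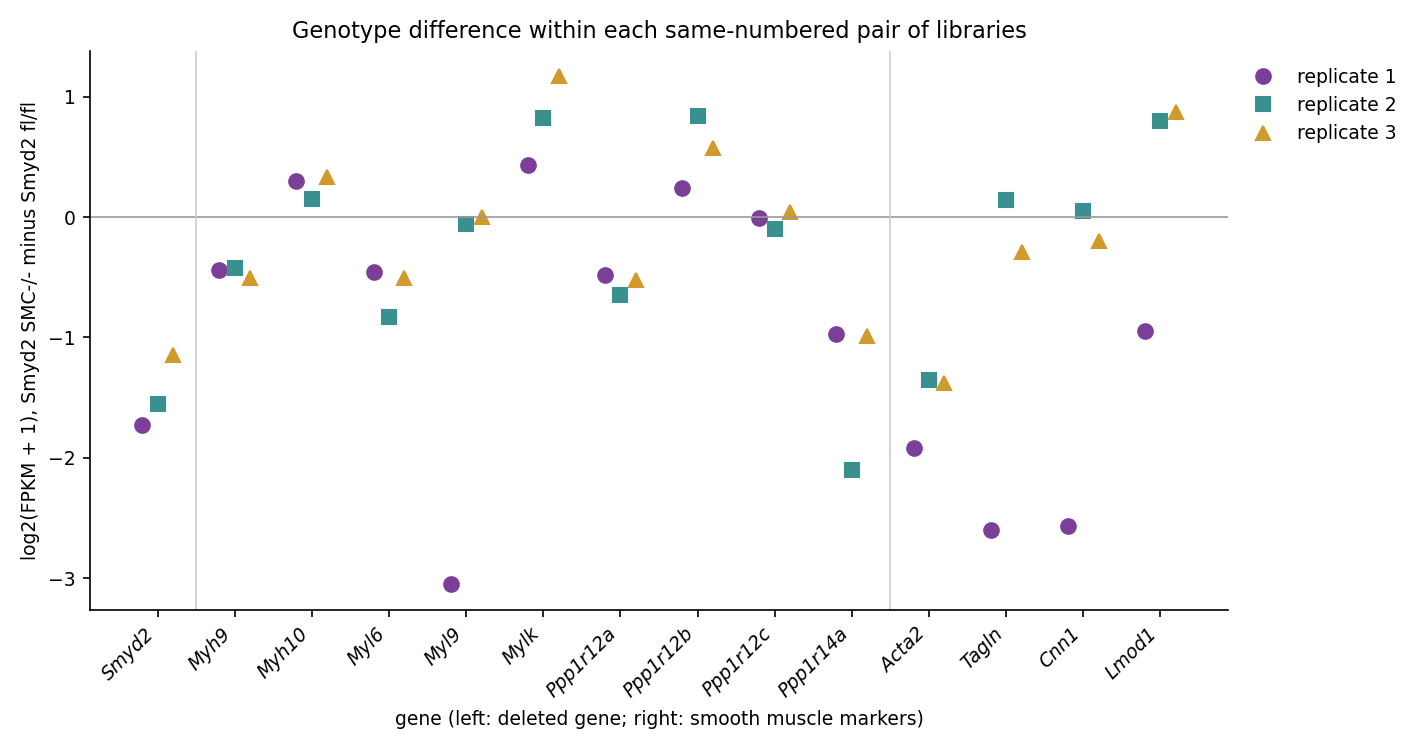
Difference in log2(FPKM + 1) between the Smyd2 SMC-/- and the Smyd2 fl/fl library of the same replicate number (vertical axis) for Smyd2, the 9 tested genes and 4 smooth muscle markers, of which Tagln, Cnn1 and Lmod1 were singled out after their values were seen. Replicate 1 (circles) reached -3.05 for Myl9, -2.60 for Tagln and -2.57 for Cnn1, whereas Myh9 and Ppp1r12a had nearly the same difference at each number.

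Mylk encodes smooth muscle and non-muscle myosin light chain kinase. It was at 1.02, 3.62 and 3.75 FPKM in control VSMCs and at 1.72, 7.14 and 9.68 FPKM in Smyd2-deficient replicates 1, 2 and 3. Replicate 1 was the lowest of both groups, so that the groups overlapped although the value was higher without Smyd2 at each number. This gave a log2 fold change of 0.81 (SE 0.581, 95% interval -0.59 to 2.20, limma adjusted p = 0.505). With the replicate block the SE fell to 0.185 and the adjusted p was 0.0578, still above the threshold, and in replicates 2 and 3 alone the log2 fold change was 0.99 (SE 0.153, limma adjusted p = 0.00319). Over the 16 other settings its adjusted p ran from 0.00319 to 0.848. Its log2 fold change was 0.40 without control replicate 1, 0.41 without Smyd2 SMC-/- replicate 3 and 1.4 without Smyd2 SMC-/- replicate 1.

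Ppp1r12a encodes MYPT1, the main targeting subunit of myosin phosphatase in smooth muscle. Its FPKM was 34.8, 29.4 and 34.1 in control VSMCs and 24.7, 18.4 and 23.5 in Smyd2-deficient VSMCs (32.8 ± 2.95 against 22.2 ± 3.31, mean ± SD, n = 3 each). All values without Smyd2 were below all control values. This gave a log2 fold change of -0.55 (SE 0.153, 95% interval -0.91 to -0.18, limma adjusted p = 0.119, and 0.0352 with the replicate block). Its adjusted p ran from 0.0175 to 0.584 over the 16 other settings, the highest when chromosome medians were removed, which left -0.21.

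Ppp1r12b encodes MYPT2, a targeting subunit known from heart and skeletal muscle. It went the other way, with 31.2, 17.1 and 21.8 FPKM in control VSMCs and 37.1, 31.4 and 32.8 FPKM in Smyd2-deficient VSMCs. The lowest value without Smyd2, 31.4 FPKM, lay just above the highest control value, 31.2 FPKM in replicate 1. The log2 fold change was 0.55 (SE 0.222, 95% interval 0.02 to 1.08) and was not called without a block (limma adjusted p = 0.234) or with the replicate block (0.0697), whereas replicates 2 and 3 alone gave 0.70 (limma adjusted p = 0.00636). Over the 16 other settings its adjusted p ran from 0.00636 to 0.473, and without control replicate 2 the log2 fold change was 0.36. Ppp1r12c, which encodes the targeting subunit MBS85, was at 25.0, 15.9 and 15.4 FPKM in control VSMCs and at 24.8, 14.7 and 15.8 FPKM in Smyd2-deficient VSMCs. It followed the replicate number and not the genotype, with a log2 fold change of -0.02 (SE 0.264, 95% interval -0.66 to 0.61, limma adjusted p = 0.973) whose sign turned under TPM scaling, under quantile normalization and without control replicate 1 (0.19), Smyd2 SMC-/- replicate 2 (0.11) or Smyd2 SMC-/- replicate 3 (0.0638).

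Ppp1r14a encodes CPI-17, the smooth muscle inhibitor of myosin phosphatase. Its FPKM was 6.21, 5.67 and 3.01 in control VSMCs and 2.67, 0.56 and 1.02 in Smyd2-deficient VSMCs (4.96 ± 1.71 against 1.42 ± 1.11, mean ± SD, n = 3 each). The groups did not overlap, but the highest value without Smyd2 was close to the lowest control value, and the values without Smyd2 stand for about 40, 9 and 17 fragments. The log2 fold change was -1.35 (SE 0.379, 95% interval -2.26 to -0.45, limma adjusted p = 0.120, and 0.0444 with the replicate block). It was called without Smyd2 SMC-/- replicate 1 (log2 fold change -1.70, limma adjusted p = 0.0419), the only call among the 9 genes when a single library was left out. Its adjusted p ran from 0.00631 to 0.347 over the 16 other settings.

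Directions were read against the shift of all genes under TPM. Relative to the median of all tested genes, the log2 fold change in FPKM and in TPM was -0.44 and -0.43 for Myh9, -0.58 and -0.57 for Myl6, and -0.53 and -0.53 for Ppp1r12a. It was 0.57 and 0.59 for Ppp1r12b, 0.82 and 0.94 for Mylk, and -1.34 and -1.66 for Ppp1r14a. Of the 9 genes, 6 had a negative and 3 a positive log2 fold change, beside 51.4% of all tested genes with a negative one. Their median was -0.46, against -0.02 over all tested genes. Among the 6, Ppp1r12c was at -0.02, and Myl9 was at -0.03 in replicates 2 and 3 alone.

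Ratios within a library do not depend on how it was scaled. Myh9 made up 88.0%, 82.0% and 83.4% of the summed FPKM of the 3 heavy chains in control VSMCs and 81.5%, 75.2% and 73.6% in Smyd2-deficient VSMCs. Myh10 took up nearly all of the rest, and the ratio of Myh9 to Myh10 was 7.40, 4.55 and 5.03 with Smyd2 and 4.41, 3.04 and 2.80 without. The groups were thus apart in this balance, by a small margin between control replicate 2 and Smyd2 SMC-/- replicate 1. The summed FPKM of the heavy chains was 330, 308 and 366 with Smyd2 and 262, 250 and 290 without.

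The targeting subunits exchanged their order. Ppp1r12a held 38.3%, 47.2% and 47.9% of their summed FPKM in control VSMCs and 28.5%, 28.6% and 32.6% in Smyd2-deficient VSMCs, and Ppp1r12b held 34.3%, 27.4% and 30.6% and then 42.8%, 48.6% and 45.4%. Ppp1r12a was thus above Ppp1r12b in each control library and below it in each Smyd2 SMC-/- library, with a ratio of Ppp1r12b to Ppp1r12a of 0.896, 0.580 and 0.639 against 1.5, 1.70 and 1.39. These genes lie on chromosomes 1 and 10, whose medians were 0.11 and -0.35. The sum of the 3 subunits stayed within the spread of the libraries, at 91.0, 62.3 and 71.2 FPKM with Smyd2 and 86.5, 64.5 and 72.1 FPKM without.

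**Figure D4:**
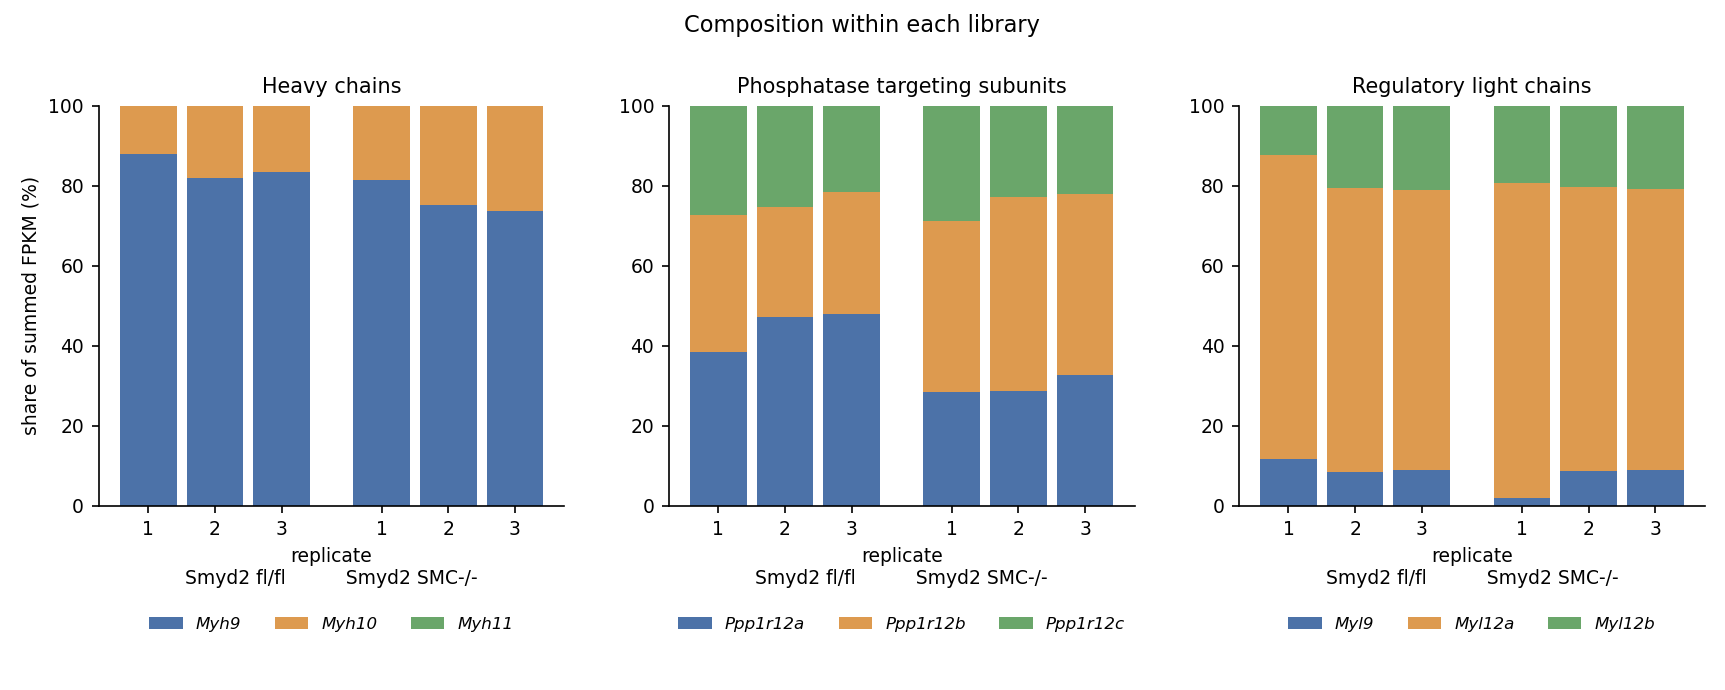
Share (%) of each gene in the summed FPKM of the heavy chains, the phosphatase targeting subunits and the regulatory light chains (Myl9 with its paralogs Myl12a and Myl12b) in each of the 6 libraries. Ppp1r12b ran from 27.4% to 34.3% in Smyd2 fl/fl and from 42.8% to 48.6% in Smyd2 SMC-/- libraries, and Myl9 was at 1.82% in Smyd2 SMC-/- replicate 1.

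The balance of the switch genes against the targeting subunits followed both genotype and replicate. The log2 ratio of Mylk to the summed targeting subunits was -6.48, -4.11 and -4.25 in control VSMCs and -5.65, -3.18 and -2.90 in Smyd2-deficient VSMCs. It was higher without Smyd2 at each number, but the difference between replicate 1 and the others was larger than that between the genotypes, and the groups overlapped. The log2 ratio of Ppp1r14a to the summed targeting subunits was -3.87, -3.46 and -4.56 with Smyd2 and -5.02, -6.85 and -6.14 without, and these groups did not overlap. The log2 ratio of Myl9 to Myl6 was -3.04, -3.82 and -3.60 with Smyd2 and -5.74, -3.05 and -3.10 without, so that it was lower without Smyd2 in replicate 1 and higher in replicates 2 and 3. No test was made of these ratios.

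Among the other myosin II chains, 6 of 9 listed genes were tested, and limma called 0 without a block and 1 with the replicate block, which called 10.4% of all genes. These counts, and those of the lists below, are too small to be told apart from that share. Myl12a, a regulatory light chain of non-muscle cells and the most abundant of the list, was at 611, 596 and 563 FPKM in control VSMCs and 449, 561 and 560 FPKM in Smyd2-deficient VSMCs (log2 fold change -0.18, limma adjusted p = 0.534, and 0.07 under quantile normalization). Myl12a and Myl12b are near-identical, and how their fragments were divided is uncertain. Myl9 was 11.6%, 8.49% and 8.79% of the summed regulatory light chains with Smyd2 and 1.82%, 8.67% and 8.85% without. Myl6b, an essential light chain, was called lower with the replicate block (-1.09, SE 0.176, limma adjusted p = 0.0319), and it lies on chromosome 10; with chromosome medians removed and the block kept it was at -0.75 (limma adjusted p = 0.0810). Myl7, an atrial light chain singled out after its values were seen, was at 0, 1.62 and 1.26 FPKM with Smyd2 and 0.44, 13.5 and 8.50 FPKM without (1.69, limma adjusted p = 0.342, and in replicates 2 and 3 alone 2.27, limma adjusted p = 0.000412).

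Kinases other than Mylk that can act on the light chain or on the phosphatase were tested in 11 of 15 cases, with 0 called without a block and 1 with the replicate block (10.4% of all genes). That gene was Dapk3, or ZIP kinase, which phosphorylates both the light chain and MYPT1 (-0.45, SE 0.0897, limma adjusted p = 0.0439). Dapk3 also lies on chromosome 10, and with chromosome medians removed and the block kept it was at -0.11 (limma adjusted p = 0.458). Ilk, integrin-linked kinase and the most abundant of the list, was at 128, 110 and 109 FPKM with Smyd2 and 77.1, 88.3 and 83.7 FPKM without, and was not called (-0.47, limma adjusted p = 0.107, and 0.0695 with the replicate block).

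Of 14 other phosphatase genes 10 were tested, with 0 called without a block and 1 with the replicate block, near the share of all genes. Ppp1ca, the α catalytic subunit of protein phosphatase 1 and the most abundant of the list, was at 250, 272 and 225 FPKM with Smyd2 and 137, 172 and 156 FPKM without (log2 fold change -0.68, SE 0.142, limma adjusted p = 0.0620, and 0.0320 with the replicate block). It lies on chromosome 19, and with chromosome medians removed and the block kept it was at -0.29 (limma adjusted p = 0.167). Ppp1cb, the catalytic subunit found in myosin phosphatase and singled out here after its values were seen, was at 33.2, 38.1 and 35.0 FPKM with Smyd2 and 43.7, 49.7 and 45.7 FPKM without. Its groups did not overlap, and its log2 fold change of 0.38 (SE 0.119) was not called (limma adjusted p = 0.147, and 0.0583 with the replicate block). It lies on chromosome 5, and with chromosome medians removed and the block kept it was at 0.08 (limma adjusted p = 0.579).

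Calmodulin, which activates the kinase, is encoded by more than 1 gene. All 5 calmodulin and calmodulin kinase genes were tested, and limma called 0 of them without a block and 0 with the replicate block, with a list median of 0.06; at 10.4% of all genes, 0 of 5 says little. Calm2, the most abundant calmodulin gene, was at 251, 408 and 356 FPKM with Smyd2 and 222, 312 and 301 FPKM without. The groups overlapped. Of 6 myosin partners 5 were tested, each with a negative log2 fold change, as had 51.4% of all tested genes, and a median of -0.30, and 1, Cald1, was called with the replicate block. Unc45a among them, at -0.09, turned to 0.16 without control replicate 1, 0.09 without Smyd2 SMC-/- replicate 2 and 0.02 under TPM. Smtn, also among them at -0.05, turned positive in 7 settings, such as 0.05 in replicates 2 and 3 alone and 0.07 under TPM. Cald1 encodes caldesmon, which holds back myosin on actin filaments, and it was at 497, 404 and 428 FPKM with Smyd2 and 279, 290 and 315 FPKM without (-0.58, SE 0.132, limma adjusted p = 0.0757, and 0.0488 with the block). With chromosome medians removed as well it was at -0.48 (limma adjusted p = 0.107). S100a4, a myosin IIA-binding protein and the most abundant partner, was at 1255, 1425 and 1211 FPKM with Smyd2 and 1016, 926 and 572 FPKM without (-0.67, limma adjusted p = 0.182, and 0.0698 with the block).

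**Figure D5:**
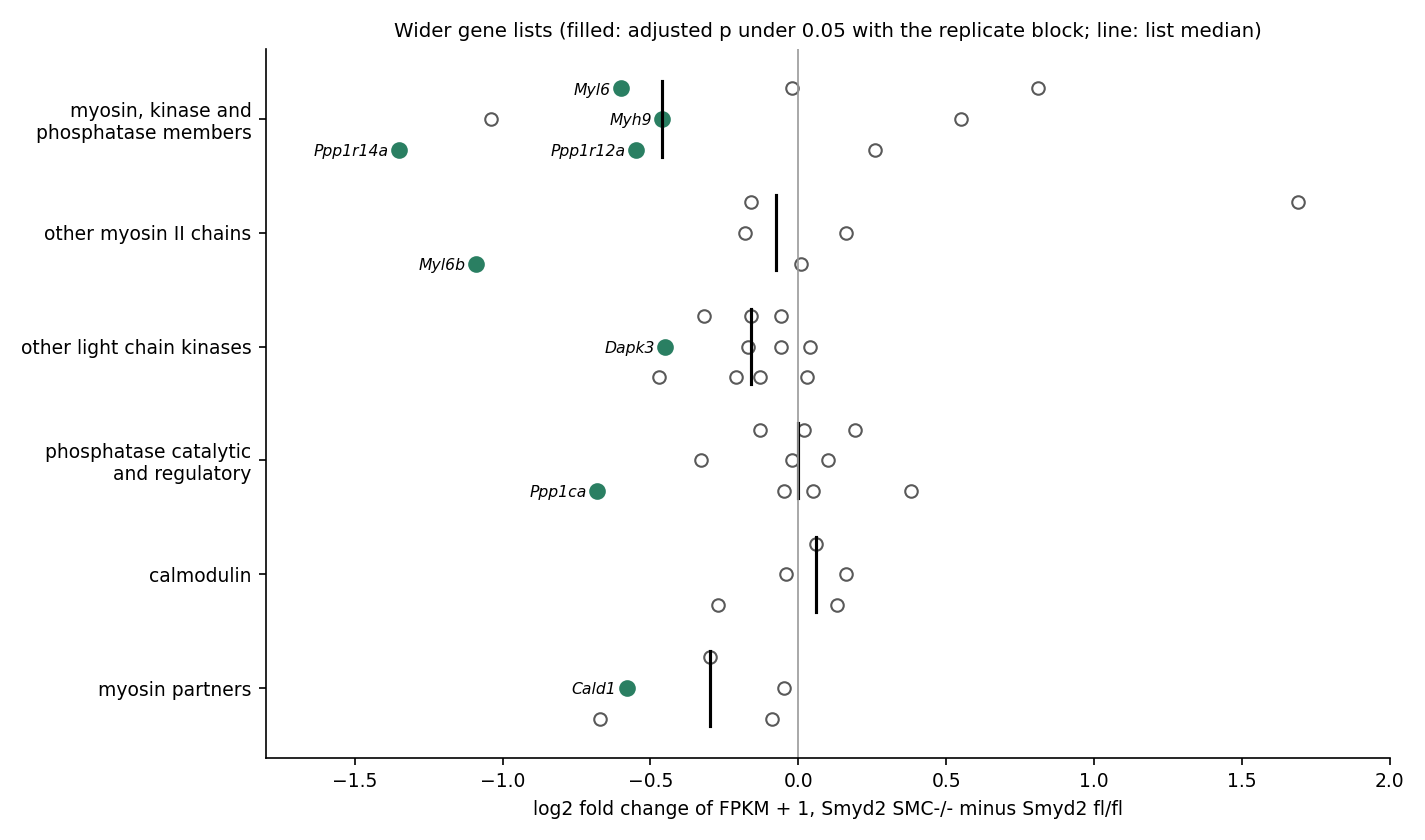
Log2 fold change of FPKM + 1 (horizontal axis, Smyd2 SMC-/- minus Smyd2 fl/fl) of each tested gene in 6 lists, 1 point a gene, with the list median as a line and genes called with the replicate block filled and named. The filled points, 4 among the 9 genes described here and 1 each in 4 of the other lists, all lie below 0. Of all tested genes, this block called 10.4%, with 5.72% lower and 4.72% higher. Of the filled genes, Myl6, Ppp1r12a, Myl6b and Dapk3 lie on chromosome 10 and Ppp1ca on chromosome 19. None of the filled genes was called with chromosome medians removed and the block kept.

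Profiles over the 6 libraries were compared with those of 11165 genes with a symbol and a mean of at least 1 FPKM, as a description. Myl9 was most like Ehd1 (Pearson r = 0.988), Ap2a2 (0.985) and Spout1 (0.982). Ehd1 was at 16.3, 7.17 and 11.6 FPKM in control VSMCs, was listed at 0 in Smyd2 SMC-/- replicate 1, and was at 9.57 and 11 FPKM in replicates 2 and 3. Mylk was most like Sgsh (0.996), Ptk2b (0.995) and Acot11 (0.994), and Ptk2b was at 16.6, 24.5 and 25.0 FPKM with Smyd2 and 19.8, 34.9 and 37.1 FPKM without. Ppp1r14a was most like Bmt2 (0.999), Rad52 (0.997) and Eci1 (0.995), and Bmt2 was at 11.9, 11.4 and 9.98 FPKM with Smyd2 and 9.85, 7.78 and 8.37 FPKM without. All of these profiles share the genotype and replicate differences of the same 6 libraries.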

How the data were processed

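Reads were filtered (SOAPnuke), aligned (HISAT, Bowtie2) and quantified (RSEM) by the authors, whose deposited table holds FPKM. Versions and the genome build are not given in the sources used here. Members and lists were chosen with earlier results of these data known. Genes averaging at least 0.5 FPKM (12565) were compared on log2(FPKM + 1) with limma 3.58.1 in R 4.3.3 (trend and robust options, Benjamini-Hochberg adjustment). The fit was also tried on simulated data, with planted changes larger than those of the tested members and no chromosome shifts. That trial does not bear on the calls given here. Replicate numbers come from the sample titles. Deviations from the group means correlated across genes at 0.615, 0.460 and 0.527 between same-numbered libraries, and at 0.439 and 0.461 between numbers 2 and 3. Between replicate 1 and the other numbers the correlations ran from -0.557 to -0.508. These values set replicate 1 apart but hardly separate number 2 from number 3. They thus give little ground for blocking by each number and not by replicate 1 alone. The replicate block is given beside the fit without a block for many of the named genes. Named genes are the members, up to 6 genes of each wider list called in either fit, each list's most abundant gene and the 3 profiles most like Myl9, Mylk and Ppp1r14a; other genes are named after their values were seen. Depth was estimated from the spacing of low FPKM (66.2% to 74.6% within 0.15 of a whole fragment, 30% by chance) at 17750000 to 20750000 fragments and covers counting error only. Chromosomes come from RefSeq GRCm38.p6. A wider list is not reported here.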

Additional observations from a re-analysis of the deposited data

Results flagged for a closer look

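Myl9 was low in Smyd2 SMC-/- replicate 1 and near its control in replicates 2 and 3. The log2 difference in replicate 1 minus that in replicates 2 and 3 was -3.02. Myl9 is listed here by an interaction term that also called 1083 of 12565 genes (8.62%). That term was chosen after the pattern was seen and rests on 1 library of each genotype at replicate 1, so no p-value is given and the value is a description only.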

How the results depend on the processing

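Limma without a block called 306 genes and 0 of the 9 tested. The replicate block gave 1312 and 4, the block for replicate 1 gave 2550 and 6, and replicates 2 and 3 alone gave 3667 and 6. The cutoffs in the study's methods, put on the limma fit without a block, gave 53 and 0. The study's own test was not repeated. Leaving out 1 library gave 34 to 682 genes and 0 to 1 of the 9; where a group keeps 2 libraries the spread is pooled. Chromosome medians removed with the block, added after seeing the data, gave 614 and 0. Ppp1r12c turned sign at 0.0974 under TPM and 0.0124 under quantile normalization and ran from -0.24 to 0.19 without 1 library; the cause was not tested. The other 8 tested genes kept their direction in all 16 other settings. The log2 ratio difference of Ppp1r12b moved from 0.92 against both other subunits to 1.14 against Ppp1r12a alone, by construction. That of Mylk moved from 1.04 against the summed targeting subunits to 1.6 against Ppp1r12a alone. Against the sum it was 0.27 without control replicate 1 and 1.91 without Smyd2 SMC-/- replicate 1. That of Ppp1r14a moved from -2.04 to -1.47 against Ppp1r12a alone. That of Myl9 to Myl6 turned from -0.48 to 0.41 without Smyd2 SMC-/- replicate 1 and to 0.64 in replicates 2 and 3 alone. The replicate block changed no call among the 9 genes other than those of Myh9, Myl6, Ppp1r12a and Ppp1r14a. At this depth counting error weighs most on Myh11 and Ppp1r14a, the genes with the fewest fragments of the 10.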

Other observations

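Genes under the filter that act on this pathway were read as values only, and those named were chosen after their values were seen. Prkg1, the cGMP-dependent kinase that acts on myosin phosphatase in smooth muscle, was at 0.03, 0.10 and 0.10 FPKM in control VSMCs and 0.39, 0.66 and 0.83 FPKM in Smyd2-deficient VSMCs. Ppp1r14c, a relative of CPI-17, was at 0.46, 0.37 and 0.29 FPKM with Smyd2 and 0.21, 0.06 and 0.04 FPKM without. Limch1, an activator of non-muscle myosin IIA, was at 0.04, 0.04 and 0.10 FPKM with Smyd2 and 0.26, 0.22 and 0.24 FPKM without. None of these 3 genes entered the main test. Their groups did not overlap. The share without overlap was 28.1% of genes that passed the filter, and no such share was taken for genes under it. The groups overlapped for the other listed pathway genes under the filter: Myh11, Myh14, Dapk2, Mylk2, Mylk3, Mylk4, Ppp1r14d and Ppp1r16b.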
